A study of Mus musculus with 12 samples.

Results

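The genes described here encode subunits of voltage-gated calcium channels. They are the 10 genes Cacna1s, Cacna1c, Cacna1h, Cacna2d1, Cacna2d4, Cacnb1, Cacnb3, Cacng1, Cacng6 and Cacng7, chosen by gene name from the 15344 genes of the deposited tables. Each was present once in both tables, and all 10 passed the filter on low values in each of the 3 comparisons. Cacng7, Cacna1c and Cacna2d4 were set against the main muscle subunit of their own class. The study had singled out these same genes from these same libraries, so their direction here is not independent evidence.

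A voltage-gated calcium channel is built around an α1 subunit, which forms the pore and senses the membrane potential. The α2δ and β subunits help to bring the α1 subunit to the surface membrane and adjust its opening, and a γ subunit joins the complex in skeletal muscle. In a skeletal muscle fibre the complex of Cav1.1, α2δ-1, β1a and γ1 (from Cacna1s, Cacna2d1, Cacnb1 and Cacng1) lies in the transverse tubules, where it senses depolarisation and opens the calcium release channel of the sarcoplasmic reticulum. Other members of the families are best known from heart, smooth muscle, retina or brain.

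RNA-seq was performed on quadriceps of 12 C57BL/6 mice at 6 months of age, in 3 groups of 4 with 1 library per animal. The WT animals were wild type, and no treatment is named for them. The KO animals were GAA Knock-out mice, which are the model of Pompe disease, a lysosomal glycogen storage disorder, and they received PBS. The AAV animals were GAA Knock-out mice given AAV2/8-LSPhGAApA at 2 months of age by tail vein at 2e12 vg/kg, so that the AAV and KO animals share the knock-out. The vector carries human GAA under a liver-specific promoter, so that the muscle is reached by enzyme made in the liver, and the knock-out mice of the study were male.

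Between 22122233 and 47379737 reads were counted per library, a ratio of 2.14 between the deepest and the shallowest. Values are normalized counts, that is, reads per gene divided by 1 size factor per library. The mouse Gaa gene (ENSMUSG00000025579, chromosome 11) went against the labels. It was at 343, 14640, 324 and 460 in the libraries labelled WT, at 12151, 13074, 11936 and 12895 in those labelled KO and at 947, 587, 499.6 and 9854 in those labelled AAV. Its log2 fold change for KO against WT was 3.75 (SE 1.03, adjusted p = 0.025, limma), higher where the label says knock-out. The call was not made by edgeR (1.66, adjusted p = 0.29), and it was made in 2 of 8 fits without 1 library. WT replicate 2 and AAV replicate 4 stood apart from their groups, and the groups below are named by their labels. Counts over the whole gene do not show where the allele is disrupted. All 8 skeletal muscle markers were present, at 16270 or more in every library. They mark skeletal muscle in general and cannot tell which muscle was taken. WT replicate 3 also differed from the other libraries labelled WT in several members, as the values below show.

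Of the 10 members, 7 have an entry in the RefSeq table of gene starts for GRCm38.p6, and Cacna1h, Cacna2d4 and Cacng1 have none there. The bases before the start are shown for Cacng7, the member with the largest difference between groups, and for Cacna1s and Cacnb1, from the main muscle complex. Each is written 5′ to 3′ in the direction of the gene and holds no annotated exon of GENCODE M21. The window of Cacnb1 lies before one of its starts but inside the annotated gene, which reaches further upstream. Capitals mark E-boxes, the letters CANNTG, which read the same on both strands.
Cacng7 (chr7:3332575-3332824, + strand): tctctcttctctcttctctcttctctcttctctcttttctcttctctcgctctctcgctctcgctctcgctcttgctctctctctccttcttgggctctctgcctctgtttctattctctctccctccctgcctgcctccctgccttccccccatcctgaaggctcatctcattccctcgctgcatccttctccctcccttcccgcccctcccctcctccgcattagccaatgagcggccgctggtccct
Cacna1s (chr1:136052561-136052749, + strand): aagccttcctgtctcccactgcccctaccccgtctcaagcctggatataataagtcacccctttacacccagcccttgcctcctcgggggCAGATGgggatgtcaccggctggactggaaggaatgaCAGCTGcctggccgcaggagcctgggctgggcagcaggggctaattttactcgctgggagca
Cacnb1 (chr11:98022635-98022877, - strand): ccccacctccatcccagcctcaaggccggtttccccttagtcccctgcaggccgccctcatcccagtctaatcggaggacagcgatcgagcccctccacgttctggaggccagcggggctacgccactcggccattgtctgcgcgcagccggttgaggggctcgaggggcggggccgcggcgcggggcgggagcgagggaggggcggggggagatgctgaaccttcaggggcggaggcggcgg
The 250 bases before the start of Cacng7 held 0 E-boxes and those of Cacna1s held 2. Of the 2 starts of Cacnb1, the window of the first, shown above in part, held 0 and that of the second held 1. An E-box was found in 66.2% of the 32851 windows of 250 bases in the table. The letters TATAAA (12.4% of all windows) and the core of MEF2 sites (3.2% of all windows) were searched on both strands and were not in the window of any of the 7 members. A match is only a string of letters, and these windows were not measured in this study.

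Groups were compared by limma on log2(normalized count + 1), and a gene was called at a Benjamini-Hochberg adjusted p under 0.05 over all genes tested. For KO against WT, 7 of the 10 members were called. Cacng7, Cacna1h, Cacna2d4, Cacna1c and Cacng6 were higher in the libraries labelled KO, and Cacnb1 and Cacng1 were lower. Over all 14859 genes, 27.6% were called, 12.3% higher and 15.3% lower, and 13.9% were called with a change of 1 or more in size on the log2 scale, as were 6 members. The median log2 fold change was 0.59 over the members and 0.02 over all genes. Without WT replicate 2, 6 of the 10 were called, Cacng1 being the one lost.

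For AAV against KO, 4 of the 10 members were called. Cacng7 and Cacng6 were lower in the libraries labelled AAV, and Cacnb1 and Cacng1 were higher. The background was 26.3% of 14894 genes, 12.8% higher and 13.4% lower, with 8.98% past the same fold, a size that 2 members reached. The medians were -0.19 over the members and 0.04 over all genes. Without AAV replicate 4 the count stayed at 4, and with all 12 libraries in one fit it was 3. With libraries scaled by their total reads, the median of all genes moved to 0.21 and the share of calls that were higher from 48.9% to 65.4%. This comparison and the first share the libraries labelled KO, so opposite signs in them are not independent.

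In the comparison of AAV with WT, limma called 0 of the 10 members, against 1.29% of 14939 genes (0.951% higher, 0.341% lower, and 0.951% in either direction past the fold of 1 on the log2 scale). At an unadjusted p under 0.05 there were 2, Cacna1c and Cacna1h, which DESeq2 on the recovered reads called and edgeR did not. Both were also called with total-read scaling, with all 12 libraries in one fit and without WT replicate 3. Without WT replicate 2 and AAV replicate 4 the count was 0, where only 10 of 14710 genes were called. The medians were 0.16 over the members and -0.03 over all genes, and total reads moved the median of all genes to 0.12 and the share of calls that were higher from 73.6% to 89%.

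**Figure D1:**
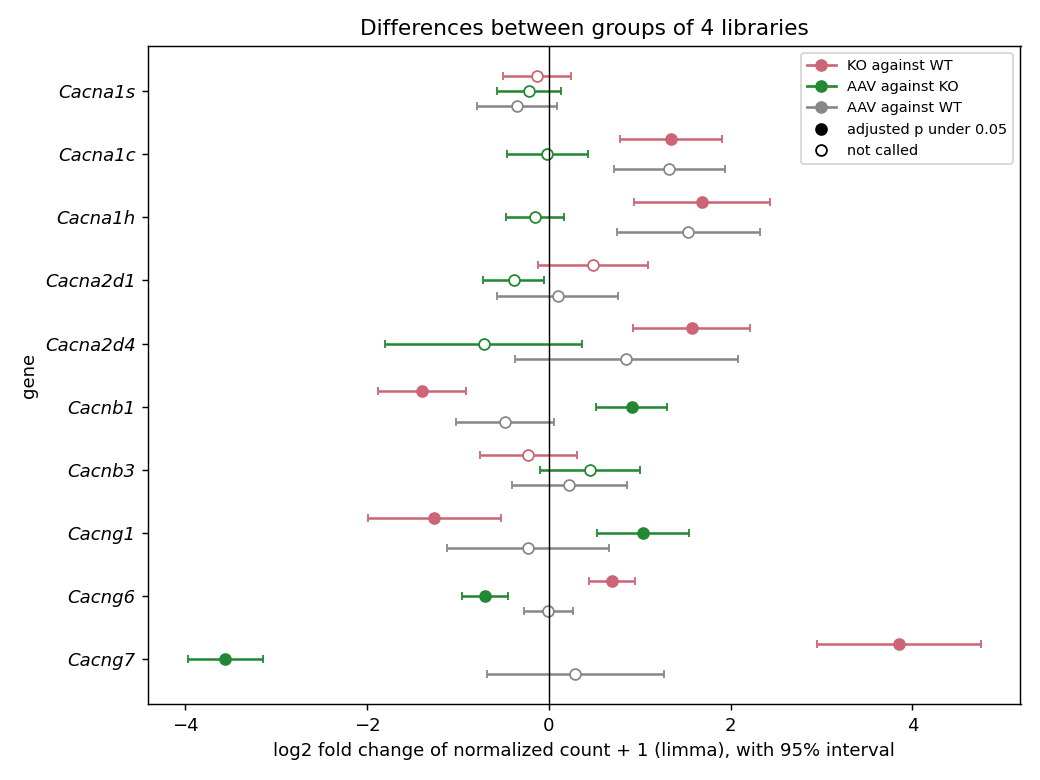
Log2 fold changes (horizontal axis, limma on normalized count + 1) of the 10 genes in 3 comparisons of 4 against 4 libraries, with 95% intervals. Filled points passed an adjusted p of 0.05, and Cacng7 lies farthest from 0, at 3.85 and -3.56.

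The α1 subunits are described first. Cacna1s (ENSMUSG00000026407, chromosome 1, 136052750 to 136119822 in GRCm38) encodes Cav1.1, the voltage sensor of skeletal muscle. Its normalized counts were 40083, 47955, 58177 and 38537 in the libraries labelled WT, were 46890, 39244, 36187 and 45538 in those labelled KO, and 34857, 42187, 38077 and 29219 in those labelled AAV. The 3 groups overlapped, with the highest value in WT replicate 3 and the lowest in AAV replicate 4. The log2 fold change was -0.13 (95% interval -0.50 to 0.25) for KO against WT, -0.22 (-0.58 to 0.13) for AAV against KO and -0.35 (-0.79 to 0.09) for AAV against WT, and none was called.

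Cacna1c (ENSMUSG00000051331, chromosome 6, 118587240 to 119196418) encodes Cav1.2, the L-type pore of heart and smooth muscle. It was at 38.0, 19.1, 31.7 and 30.2 in the libraries labelled WT, at 78.3, 63.3, 69.6 and 91.1 in those labelled KO, and at 60.6, 87.6, 86.2 and 65.2 in those labelled AAV. The libraries labelled WT lay below all others, and the remaining groups overlapped. From 29.8 ± 7.85 (SD, n = 4) in the libraries labelled WT, the mean was 2.54 times as high in those labelled KO (log2 fold change 1.34, SE 0.25, adjusted p = 0.00594 by limma). The libraries labelled AAV differed from those labelled KO by -0.02 (95% interval -0.47 to 0.43). Against WT they were higher by 1.32 (SE 0.27), just outside the threshold (adjusted p = 0.0528, limma), and over the other tests, scalings and filters the adjusted p ran from 0.000792 to 0.0816. Leaving out 1 library at a time gave 0.0451, without WT replicate 3, to 0.173. These values rest on 18 to 103 reads per library.

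Cacna1h (ENSMUSG00000024112, chromosome 17, 25374285 to 25433783) encodes Cav3.2, a T-type pore that opens near the resting potential. It was at 53.4, 23.4, 57.6 and 20.5 in the libraries labelled WT, at 114, 116, 108 and 121 in those labelled KO, and at 93.7, 108, 100.4 and 112 in those labelled AAV. As for Cacna1c, the libraries labelled WT lay apart below the rest. The log2 fold change for KO against WT was 1.69 (SE 0.34, adjusted p = 0.00751, limma). For AAV against KO it was -0.15 (95% interval -0.47 to 0.17), and for AAV against WT 1.54 (SE 0.35, adjusted p = 0.065, limma). That last adjusted p ran from 0.00495 to 0.0835 over the other tests, scalings and filters, and from 0.0328, without WT replicate 3, to 0.181 in the 8 fits without 1 library, of which 1 passed.

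Cacna1c and Cacna1h are also expressed in vessel walls, whose markers also differed between the groups. In bulk tissue, fewer cells of a type and less RNA per cell cannot be told apart. The summed level of 6 smooth muscle markers was 4807 to 8289 in the libraries labelled WT, 8439 to 10315 in those labelled KO and 7265 to 9838 in those labelled AAV. Of the 6, Myh11 (smooth muscle myosin) and Mylk (myosin light chain kinase) were called higher for KO against WT, and none was listed at 0 in any library. The summed level of 5 endothelial markers was 1564 to 4522, 4105 to 5163 and 2982 to 5238 in the same order. Vwf, Cdh5 and Pecam1 were called higher for KO against WT, and none of the 5 was listed at 0. Of all genes, 12.3% were called higher in that comparison. Vwf was called lower for AAV against KO (log2 fold change -1.07, adjusted p = 0.00682, limma). Between AAV and WT limma and edgeR called 0 markers of either list, with 2 of each at an unadjusted p under 0.05, and DESeq2 called 1 smooth muscle and 0 endothelial markers. Within the libraries labelled WT, replicates 2 and 4 had the lowest endothelial sums, 1564 and 1598, and the lowest Cacna1h. WT replicate 3 had an endothelial sum of 4522, within the range of the libraries labelled KO, with Cacna1h at 57.6 and Cacna1c at 31.7, below every library labelled KO. The part of these cells in the values of Cacna1c and Cacna1h was not tested.

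Among the α2δ subunits, Cacna2d1 (ENSMUSG00000040118, chromosome 5, 15934691 to 16374511) encodes α2δ-1, the form of skeletal muscle. It was at 9033, 5018, 14550.1 and 10366 in the libraries labelled WT, at 13423, 12000, 11636 and 14060 in those labelled KO, and at 10971, 11340, 9814 and 7354 in those labelled AAV. The libraries labelled WT spread over the whole range of the other 8. The log2 fold change was 0.49 (95% interval -0.12 to 1.09) for KO against WT, -0.39 (-0.73 to -0.05, adjusted p = 0.083, limma) for AAV against KO and 0.10 (-0.57 to 0.76) for AAV against WT. Without WT replicate 3, the highest library, the first became 0.71 and was called (adjusted p = 0.0205, limma), and without WT replicate 2, the lowest, it became 0.20 (adjusted p = 0.426, limma).

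Cacna2d4 (ENSMUSG00000041460, chromosome 6, 119236526 to 119352407) encodes α2δ-4, known from the photoreceptors of the retina. It was at 69.7, 42.5, 101.5 and 41.9 in the libraries labelled WT, at 209.7, 160.8, 204 and 149 in those labelled KO, and at 74.4, 105, 351 and 50.5 in those labelled AAV. No library labelled WT reached the lowest of those labelled KO, and AAV replicate 3 was the highest of all 12. The log2 fold change for KO against WT was 1.57 (SE 0.29, adjusted p = 0.00561, limma), with means 2.83 times apart. For AAV against KO it was -0.72 (95% interval -1.80 to 0.37), not called. Without AAV replicate 3 it became -1.28 and was called (adjusted p = 0.00654, limma), and without AAV replicate 4 it was -0.35 (adjusted p = 0.578, limma). For AAV against WT it was 0.85 (-0.38 to 2.09), and 0.29 without AAV replicate 3.

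Among the β subunits, Cacnb1 (ENSMUSG00000020882, chromosome 11, 98001508 to 98023034) encodes β1, which skeletal muscle needs to place Cav1.1 in the tubules. Its normalized counts were 13697, 16823, 8354 and 14787 in the libraries labelled WT, were 4246, 4475, 5102 and 6115 in those labelled KO, and 10775, 7641, 7773 and 11603 in those labelled AAV. The libraries labelled KO lay below the other 8, and WT replicate 3 fell among the libraries labelled AAV. Its log2 fold change was -1.40 (SE 0.22, adjusted p = 0.00275, limma) for KO against WT and 0.91 (SE 0.17, adjusted p = 0.00796, limma) for AAV against KO. For AAV against WT it was -0.48 (95% interval -1.03 to 0.06). Both calls held in each of the 8 fits without 1 library, between -1.61 and -1.27 for the first and between 0.80 and 1.02 for the second.

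Cacnb3 (ENSMUSG00000003352, chromosome 15, 98630840 to 98644529) encodes β3, best known from brain and smooth muscle. It was at 47.1, 58.5, 33.3 and 50.7 in the libraries labelled WT, at 32.9, 36.8, 46.8 and 43.3 in those labelled KO, and at 75.8, 48.3, 39.0 and 61.5 in those labelled AAV. The groups overlapped and no difference was called. The log2 fold changes were -0.23 (95% interval -0.76 to 0.31), 0.45 (-0.10 to 1.005) and 0.23 (-0.41 to 0.86) for KO against WT, AAV against KO and AAV against WT.

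The γ subunits differed in both directions. Cacng1 (ENSMUSG00000020722, chromosome 11, 107703218 to 107716522) encodes γ1, the subunit of the skeletal muscle complex. It was at 31719, 42407, 11800 and 31400 in the libraries labelled WT, at 11933, 10496, 10752 and 11227 in those labelled KO, and at 28408, 15480 and 17938 in AAV replicates 1 to 3 and 33478 in AAV replicate 4. WT replicate 3 lay within the range of the libraries labelled KO, and the other 3 lay at 31400 or above. The log2 fold change was -1.26 (SE 0.33, adjusted p = 0.0207, limma) for KO against WT and 1.03 (SE 0.23, adjusted p = 0.0129, limma) for AAV against KO, a call not made with all 12 libraries in one fit (adjusted p = 0.0535, limma). For AAV against WT it was -0.23 (95% interval -1.12 to 0.66). The first call was lost without WT replicate 1, 2 or 4 or KO replicate 2 or 3 (log2 fold changes from -1.25 to -1.04, adjusted p 0.051 to 0.0601, limma). Without WT replicate 3 it was -1.65 (adjusted p = 1.09e-05, limma).

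Cacng6 (ENSMUSG00000078815, chromosome 7, 3424195 to 3435667) encodes γ6, the closest relative of γ1. It was at 4124, 4322, 4076 and 4007 in the libraries labelled WT, at 5990, 6775, 6417 and 7680.1 in those labelled KO, and at 4012, 4194, 4567 and 3740 in those labelled AAV. The libraries labelled KO lay above the other 8, which overlapped each other. The log2 fold change was 0.69 (SE 0.11, adjusted p = 0.00328, limma) for KO against WT and -0.70 (SE 0.11, adjusted p = 0.00479, limma) for AAV against KO. The value for AAV against WT was -0.0047 (95% interval -0.28 to 0.27). WT replicate 3 did not stand apart in Cacng6, unlike in Cacng1 and Cacnb1.

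Cacng7 (ENSMUSG00000069806, chromosome 7, 3332955 to 3368221) encodes γ7, known mainly as a protein that accompanies AMPA-type glutamate receptors in the brain. It was at 80.5, 37.2, 150.2 and 36.1 in the libraries labelled WT, at 745, 929.6, 1077 and 1017 in those labelled KO, and at 75.8, 92.6, 92.1 and 57.8 in those labelled AAV. Every library labelled KO exceeded every other library, and the highest of the others was WT replicate 3. The mean was 76.0 ± 53.6 in the libraries labelled WT, 942 ± 145 in those labelled KO and 79.6 ± 16.5 in those labelled AAV (SD, n = 4 each). It was thus 12.4 times as high in the libraries labelled KO as in those labelled WT, with a log2 fold change of 3.85 (SE 0.40, adjusted p = 0.000489, limma). For AAV against KO the log2 fold change was -3.56 (SE 0.18, adjusted p = 8.16e-06, limma), and for AAV against WT it was 0.29 (95% interval -0.68 to 1.27). WT replicate 2 and AAV replicate 4, in which Gaa was as high as in or near the libraries labelled KO, had Cacng7 at 37.2 and 57.8.

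**Figure D2:**
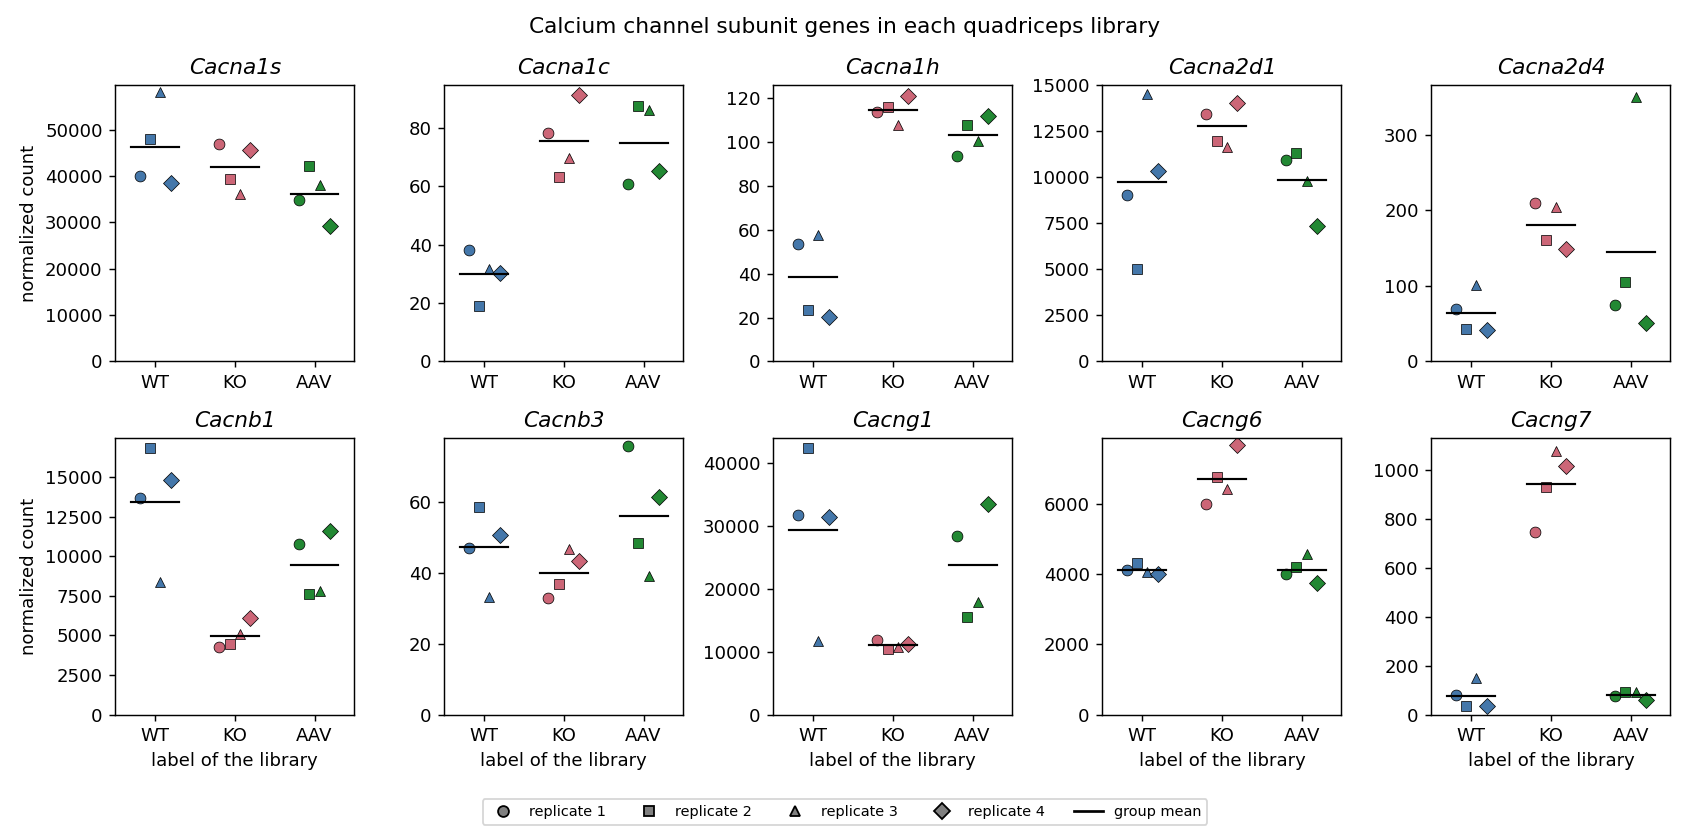
Normalized counts (vertical axes, each from 0) of the 10 genes in the 12 libraries, by label, with the marker shape giving the replicate and the line the mean of 4. Cacng7 and Cacng6 are high in all 4 libraries labelled KO, Cacnb1 is low in them, and Cacna1c and Cacna1h are low in all 4 labelled WT.

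Levels of different genes were compared as normalized counts per kb of exon, over the union of exons in GENCODE M21. In the libraries labelled WT the order was Cacng1 (23484 ± 10215), Cacna1s (7052 ± 1373), Cacnb1 (2962 ± 798), Cacng6 (2090 ± 68.4), Cacna2d1 (785 ± 317), Cacng7 (31.1 ± 22.0), Cacnb3 (11.8 ± 2.63), Cacna2d4 (6.74 ± 2.97), Cacna1h (3.97 ± 2.00) and Cacna1c (1.404 ± 0.37; SD, n = 4). Cacnb1 and Cacng6, Cacnb3 and Cacna2d4, and Cacna2d4 and Cacna1h overlapped as neighbours in that order. In the libraries labelled KO, Cacng7 stayed sixth in the order at 386 ± 59.3 per kb, Cacng6 moved above Cacnb1 (3397 ± 364 against 1101 ± 185), and Cacnb1 overlapped Cacna2d1 (1029 ± 92.6). In those labelled AAV, Cacng6 and Cacnb1 were at 2088 ± 176 and 2086 ± 450.2 per kb and overlapped.

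**Figure D3:**
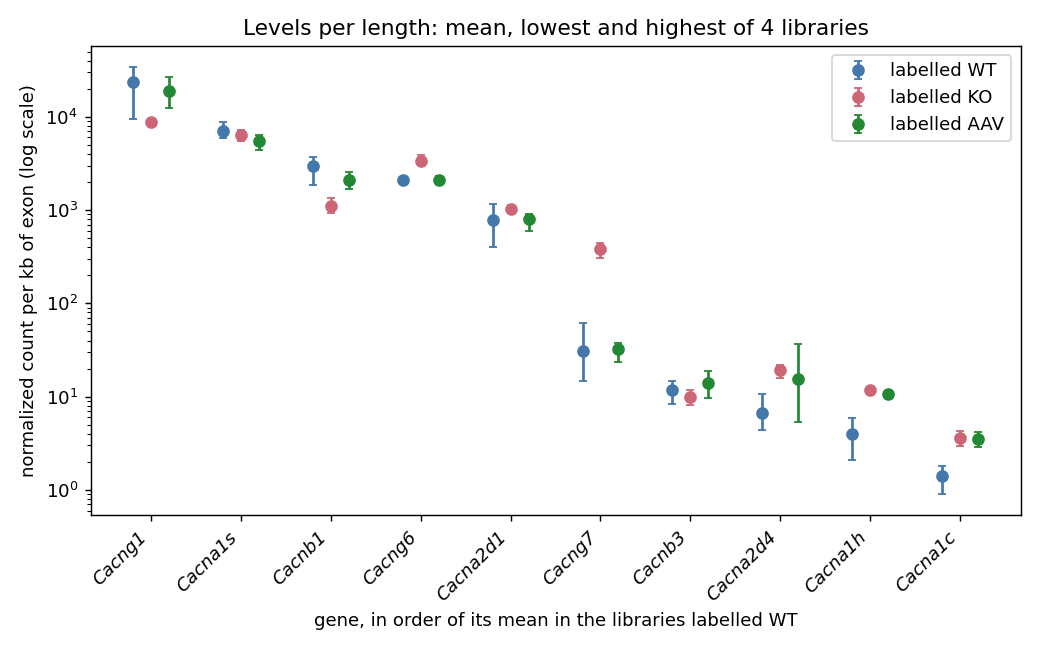
Normalized count per kb of exon (vertical axis, log scale) of the 10 genes by label, as the mean of 4 libraries with a bar from the lowest to the highest. The 5 highest genes lie at 404 per kb or more in every library. By mean, Cacng7 comes next in each group, at 31.1 per kb in the libraries labelled WT and at 386 in those labelled KO. In those labelled AAV, Cacng7 is at a mean of 32.6 and overlaps Cacna2d4.

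Within each class, the share of a gene was its level per kb over the sum of the class. Cacna1s made up 99.6% ± 0.12 of the 7 α1 genes in the tables in the libraries labelled WT, 99.5% ± 0.05 in those labelled KO and 99.1% ± 0.32 in those labelled AAV (SD, n = 4). Cacna1c was 0.0206%, 0.0554% and 0.0636% in the same order, and Cacna1s thus remained nearly the whole of the α1 class in every group. Cacna2d1 was 98.3%, 97.8% and 97.4% of the 4 α2δ genes, and Cacna2d4 was 0.875% ± 0.25, 1.83% ± 0.38 and 1.85% ± 1.74. Without AAV replicate 3, at 4.45%, the Cacna2d4 share of the other 3 libraries labelled AAV was 0.980% ± 0.17. Cacnb1 was at least 98.56% of the 4 β genes in every library. In the γ class, Cacng1 averaged 90.1% ± 5.67 in the libraries labelled WT but 70.2% ± 2.82 in those labelled KO. Cacng6 made up 9.72% ± 5.44 and 26.8% ± 2.48, and Cacng7 0.187% ± 0.23 and 3.05% ± 0.51. WT replicate 3 lay apart from the other libraries labelled WT, with Cacng1 at 81.6%, Cacng6 at 17.8% and Cacng7 at 0.532%. In the libraries labelled AAV these shares were 89.0% ± 4.08, 10.8% ± 4.001 and 0.174% ± 0.08. The shares were not tested.

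Cacng7, Cacna1c and Cacna2d4 were then set against the main gene of their class by the log2 ratio of their normalized counts + 1 within each library. The log2 ratio of Cacng7 to Cacng1 was -8.60, -10.12, -6.29 and -9.73 in the libraries labelled WT, was -4, -3.50, -3.32 and -3.46 in those labelled KO, and -8.53, -7.37, -7.59 and -9.15 in those labelled AAV. The libraries labelled KO lay above all others. The difference was 5.11 for KO against WT, -4.59 for AAV against KO and 0.52 for AAV against WT (exact two-sided permutation tests, p = 0.0286, 0.0286 and 0.657). Part of the first and second differences comes from Cacng1, whose own log2 fold changes were -1.26 and 1.03, both called. The other reference genes, Cacna1s and Cacna2d1, were not called in any comparison.

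The log2 ratio of Cacna1c to Cacna1s was -10.57 ± 0.54 in the libraries labelled WT, -9.10 ± 0.15 in those labelled KO and -8.90 ± 0.17 in those labelled AAV (SD, n = 4). The libraries labelled WT lay below the others, and the latter overlapped. The differences were 1.47 for KO against WT, 1.67 for AAV against WT and 0.20 for AAV against KO (exact permutation p = 0.0286, 0.0286 and 0.114). The ratio of Cacna2d4 to Cacna2d1 was -7.23 ± 0.47, -6.14 ± 0.31 and -6.47 ± 1.13 in the same order of groups, with AAV replicate 3 alone at -4.80. Its difference was 1.08 for KO against WT (exact permutation p = 0.0286), -0.33 for AAV against KO and 0.76 for AAV against WT (exact permutation p = 0.657 and 0.371). With 4 libraries against 4, 0.0286 is the smallest p this test can give, and adjusted over the 9 tests it came to 0.0514, so no ratio passed 0.05 after adjustment.

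**Figure D4:**
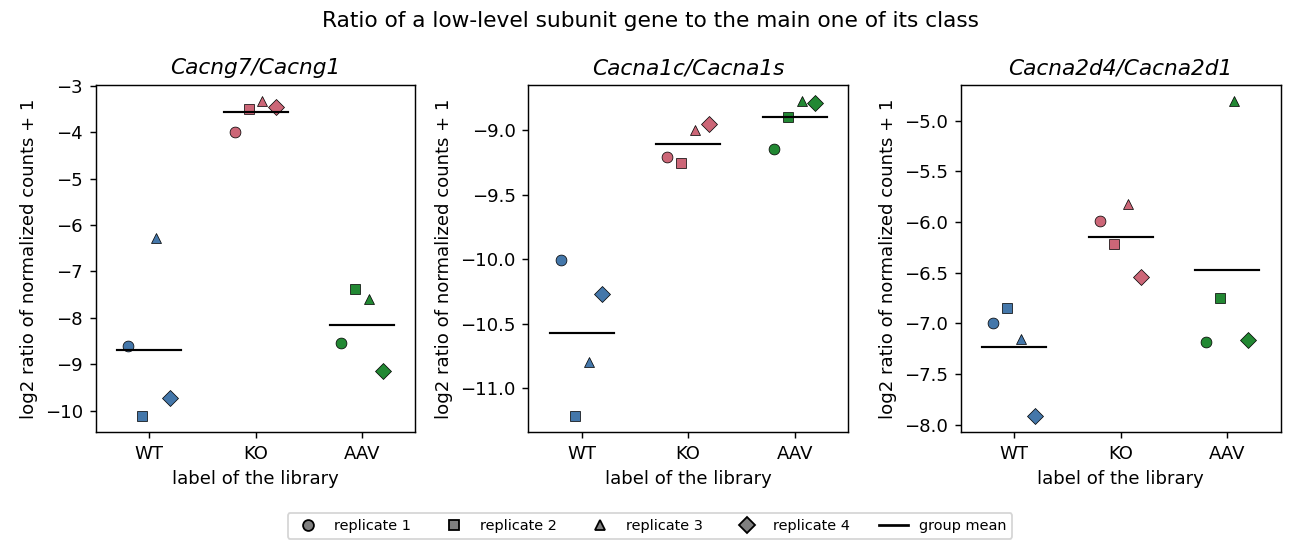
Log2 ratio of normalized counts + 1 (vertical axes) for 3 pairs of genes in the 12 libraries by label, with the marker shape giving the replicate and the line the group mean. Cacng7/Cacng1 is highest in the 4 libraries labelled KO, and Cacna1c/Cacna1s is lowest in the 4 labelled WT.

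The annotation holds 26 genes of these 4 families, of which 19 were in the tables. Cacna1b, Cacna1e, Cacna1f, Cacng2, Cacng3, Cacng5 and Cacng8 were not analysed here. The 9 further genes were Cacna1a, Cacna1d, Cacna1g, Cacna1i, Cacna2d2, Cacna2d3, Cacnb2, Cacnb4 and Cacng4. For KO against WT limma called 2 of them, both lower, and for AAV against KO 2, both higher, beside 27.6% and 26.3% of all genes called in either direction. Between AAV and WT it called 0 of the 9, as did DESeq2 and edgeR, with 0 at an unadjusted p under 0.05. Over the whole family of 19, the counts were 9, 6 and 0 and the median log2 fold changes -0.13, 0.43 and 0.19.

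Cacna1a, which encodes the P/Q-type pore of nerve terminals, was at 85.1, 172, 106 and 183 in the libraries labelled WT and at 70.5, 63.3, 71.8 and 45.1 in those labelled KO, without overlap (log2 fold change -1.06, SE 0.28, adjusted p = 0.0213, limma). That call was lost without WT replicate 2 or 4 or KO replicate 2 or 4 (-1.08 to -0.90, adjusted p 0.0512 to 0.0618, limma), and with all 12 libraries in one fit (adjusted p = 0.0578, limma). Cacna1g, the T-type pore Cav3.1, was at 76.3, 61.6, 50.03 and 64.5 in the libraries labelled KO and at 190.2, 102, 81.5 and 227 in those labelled AAV (log2 fold change 1.13, SE 0.32, adjusted p = 0.0291, limma). It was called in 2 of 8 fits without 1 library, those without AAV replicate 2 or 3. Cacng4, which encodes another γ subunit found with AMPA receptors, was at 18.1, 19.1, 7.30 and 11.7 in the libraries labelled WT, at 0, 1.71, 1.09 and 0 in those labelled KO, and at 15.2, 4.03, 4.72 and 11.9 in those labelled AAV. It was called for KO against WT and AAV against KO (adjusted p = 0.0036 and 0.0164, limma), and the second call was lost without AAV replicate 1 (adjusted p = 0.0513, limma). Since only 3 reads came from the libraries labelled KO, its size is given as a ratio of reads per total reads. That ratio was 19.5 for WT over KO (exact 95% interval 6.36 to 97.4) and 14.0 for AAV over KO (4.37 to 71.3), and the interval covers counting error only.

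Cacng1, Cacnb1 and Cacng4 were lower in WT replicate 3 than in the other libraries labelled WT, and so was the sum of 6 denervation markers. Their summed level was 7725, 10280 and 7311 in WT replicates 1, 2 and 4 and 1888 in WT replicate 3, 849 to 1011 in the libraries labelled KO, and 4511, 1722, 1379 and 6425 in those labelled AAV. Of the 6, Gadd45a, Runx1, Chrna1, Ncam1 and Chrng were called lower for KO against WT, beside 15.3% of all genes. Chrna1, a subunit of the muscle acetylcholine receptor, was at 3116, 3828, 435 and 3099 in the libraries labelled WT and at 310 to 424 in those labelled KO. None of the 6 was listed at 0 in any library. The summed level of 6 satellite cell and regeneration markers was 4059, 4883 and 5290 in WT replicates 1, 2 and 4. It was 1708 in WT replicate 3 and 1121 to 1511 in the libraries labelled KO. For KO against WT, 4 of the 6 were called lower (Myod1, Myog, Myh3 and Myh8), beside 15.3% of all genes. Pax7 and Myf5 were not called in that comparison. The 6 slow fibre markers summed to 1346 to 4644, 128 to 200.1 and 1678 to 21015 in the libraries labelled WT, KO and AAV, and all 6 were called lower for KO against WT and higher for AAV against KO, beside 15.3% and 12.8% of all genes. Macrophage markers summed to 967 to 3045, 534 to 941 and 507 to 2481. Of the 4 in the tables, Cd68 and Lyz2 were called lower and Cd163 higher for KO against WT, beside 15.3% and 12.3% of all genes. Their part in the values of the channel genes was not tested.

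**Figure D5:**
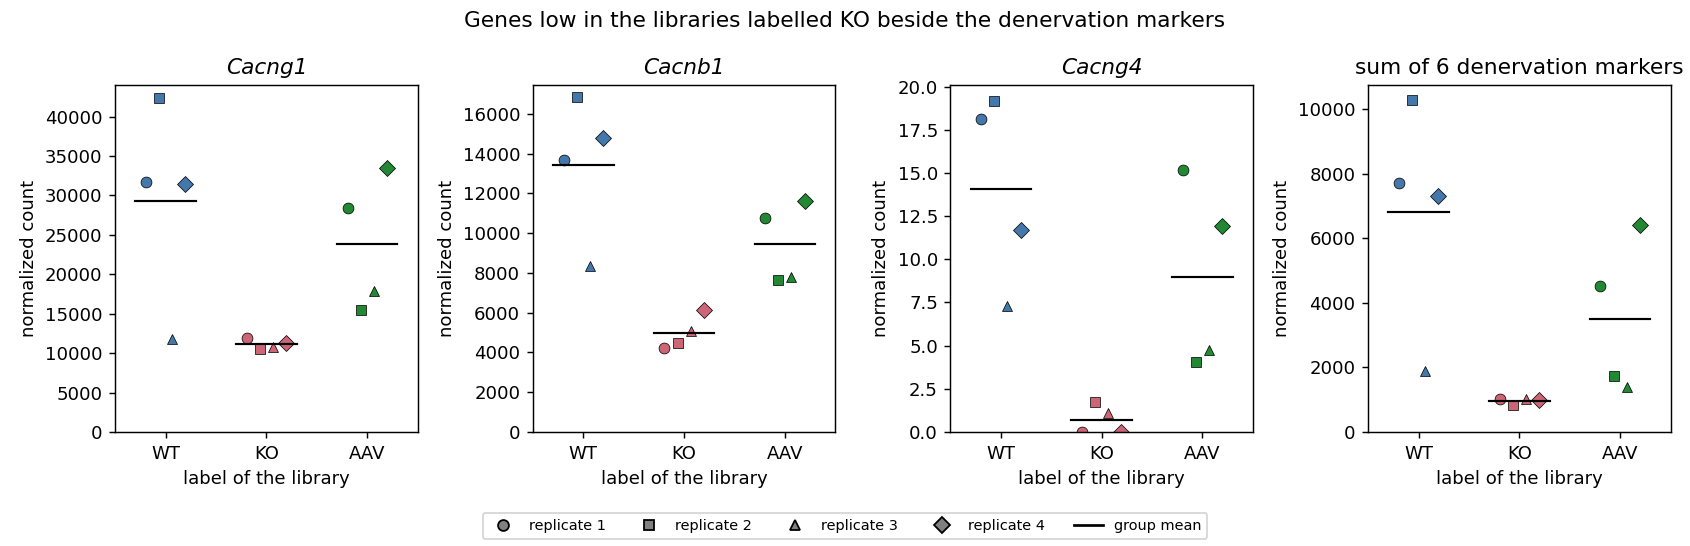
Normalized counts (vertical axes, each from 0) of Cacng1, Cacnb1 and Cacng4 and the sum of 6 denervation markers in the 12 libraries by label, with the marker shape giving the replicate and the line the mean of 4. WT replicate 3 is the lowest library labelled WT in all 4 panels, and AAV replicates 1 and 4 are the highest labelled AAV.

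Proteins that regulate these channels were taken as a list of 21 genes, of which 19 were in the tables. For KO against WT 7 were called higher and 3 lower, and for AAV against KO 2 higher and 3 lower, again beside 27.6% and 26.3% of all genes. Between AAV and WT limma called 0, with 1 at an unadjusted p under 0.05, 1 by DESeq2 and 0 by edgeR. The median log2 fold changes were 0.30, -0.13 and -0.00155, beside 0.02, 0.04 and -0.03 over all genes. Rrad encodes a small GTP-binding protein of the RGK family, which binds β subunits and lowers calcium current. It was at 1227, 1582, 597 and 1604 in the libraries labelled WT, at 73.4, 55.6, 59.8 and 46.9 in those labelled KO, and at 788, 650.4, 181 and 1338 in those labelled AAV. Its log2 fold change was -4.30 (SE 0.30, adjusted p = 5.6e-05, limma) for KO against WT and 3.33 (SE 0.50, adjusted p = 0.00361, limma) for AAV against KO, with no overlap in either. It was lowest in WT replicate 3 among the libraries labelled WT, as were Cacng1 and Cacnb1.

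Stac3, an adaptor that Cav1.1 needs in skeletal muscle, went from 7220.5 ± 780 in the libraries labelled WT to 10910 ± 732 in those labelled KO (log2 fold change 0.60, adjusted p = 0.00733, limma) and was 8537 ± 2120 in those labelled AAV. Camk2a, a calmodulin-dependent kinase, went from 12436 ± 2482 to 21962 ± 2856 (0.83, adjusted p = 0.00698, limma). Prkacb, a catalytic subunit of protein kinase A, went from 998 ± 403 to 2198 ± 299 (1.21, adjusted p = 0.00739, limma) and was 1117 ± 322 in the libraries labelled AAV (-1.01 against KO, adjusted p = 0.00882, limma).

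The partners of Cav1.1 at the junction of tubule and sarcoplasmic reticulum were a list of 17 genes, all in the tables. For KO against WT 1 was called higher and 4 lower, and for AAV against KO 3 higher and 2 lower, beside 27.6% and 26.3% of all genes called. Between AAV and WT limma called 0, with 2 at an unadjusted p under 0.05, 1 by DESeq2 and 0 by edgeR. The median log2 fold changes were -0.05, 0.22 and -0.14. Ryr1, the release channel that Cav1.1 opens, was not called for KO against WT (log2 fold change 0.23, 95% interval -0.22 to 0.69). Jsrp1, a junctional protein that binds Cav1.1, had a log2 fold change of -1.37 (adjusted p = 0.00958, limma) for KO against WT and 0.97 (adjusted p = 0.0351, limma) for AAV against KO. Fkbp1a, which binds the release channel, had -0.69 (adjusted p = 0.00473, limma) and Trim72, a membrane repair protein, -0.79 (adjusted p = 0.0148, limma) for KO against WT. Jph1, which ties the tubule to the reticulum, had 0.95 (adjusted p = 0.023, limma), and -0.82 for AAV against KO (adjusted p = 0.0496, limma).

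Among the genes near Cacng7, Myadm, 32513 bases before Cacng7, had log2 fold changes of 0.69 for KO against WT and -0.65 for AAV against KO (adjusted p = 0.0128 and 0.0155, limma). Cacng6 itself lies 55974 bases after Cacng7.

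Lrtm2 lies inside Cacna2d4 on the other strand, and the strand setting of the counting is not given in the sources used here, so reads of the pair may not be separable. Lrtm2 was at 68.8 to 219 in the libraries labelled WT, at 274 to 558 in those labelled KO and at 89.9 to 268 in those labelled AAV (log2 fold change 1.195 for KO against WT and -1.11 for AAV against KO, adjusted p = 0.0381 and 0.0346, limma). In AAV replicate 3, the library highest in Cacna2d4, Lrtm2 was at 148. Dcp1b overlaps Cacna1c and was not called in any comparison, with log2 fold changes between -0.20 and 0.05. Gm11629 overlaps the start of Cacnb1 on the other strand and was at 10.9, 19.1, 0.812 and 13.7 in the libraries labelled WT, at 0.966, 0, 1.09 and 0 in those labelled KO, and at 6.89, 2.01, 0 and 9.18 in those labelled AAV. It was called lower for KO against WT (adjusted p = 0.0306, limma), as was Cacnb1. It had 45 reads over the WT libraries but only 2 over the KO libraries as labelled, a ratio per total reads of 22.3 (exact 95% interval 5.83 to 190.1, counting error only). No member had a transcript match to another gene of at least 90% identity over at least 50% of its length.

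The genes most like each of the 3 compared genes were found by Pearson's r of log2(normalized count + 1) over the 12 libraries, among 11071 genes with a mean of at least 50. These libraries share their groups, so r is a description. For Cacng7 they were Deptor, Ccdc91 and Snx10, each with r = 0.974. Snx10, which encodes a sorting nexin, had means of 100.2, 455 and 87.5 in the libraries labelled WT, KO and AAV, and Deptor, which encodes a partner of mTOR, 1793, 6021 and 1788. For Cacna1c they were Snx6 (r = 0.958), Pde2a (0.948) and Ldb2 (0.94), of which Pde2a, a phosphodiesterase, had means of 419, 824 and 795. For Cacna2d4 they were Kcnf1 (r = 0.954), Smyd1 (0.939) and Ikbkap (0.937), of which Kcnf1, a potassium channel subunit, had means of 45.6, 227 and 100.2.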

How the data were processed

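Quadriceps RNA of 12 mice was sequenced. Per the labels and methods, the authors trimmed reads with Trim Galore 0.4.1, mapped them to GRCm38 with STAR, counted uniquely mapped reads per gene with HTSeq 0.6.1, filtered out genes below 10 reads in all libraries, and divided counts by DESeq2 1.16.1 size factors. The deposited signal values are these normalized counts. The authors' deposited tables also hold log2 fold changes, the standard error and Wald statistic as a score, and p-values of their own comparisons, none of which was used. Both tables (15344 genes) were joined on the gene identifier, with equal KO values. Of all values, 100% were whole reads (tolerance 0.05) once divided by the step of their library.

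Conditions came from the labels. limma with trend was run on log2(value + 1) for genes that reached 10 in 1 or more of the 8 libraries, adjusted by Benjamini-Hochberg, in place of a count test because the values are normalized. On the recovered reads, DESeq2 called 4864, 4775 and 935 genes and edgeR quasi-likelihood 3979, 4027 and 163 for KO against WT, AAV against KO and AAV against WT, beside 4097, 3910 and 193 by limma. On simulated counts for KO against WT (13699 genes, 200 changed), limma recovered 98.5%, with 6 false calls. All changed genes had the same size of change there, and all genes the same spread setting, with no outlying library. The simulation therefore checks the code and does not give the share of real changes found in these libraries. The 9 ratio tests were exact two-sided permutation tests. Named genes were Gaa, the members, called family genes, up to 4 genes per list by adjusted p in KO against WT (Ryr1, Chrng, Pax7 and Myf5 were added after their values were seen), overlapping or adjacent genes and the 3 most alike. Some genes that this rule names are not reported here. The members, lists and tests were chosen with earlier results of these data known. Alternatives were other tests, scalings, filters, a pseudocount of 0.1, all 12 libraries in one fit, a replicate block and each library left out. Lengths came from GENCODE M21 (15186 identifiers matched). R 4.3.3, limma 3.58.1, edgeR 4.0.16, DESeq2 1.42.0, Python 3.11.15 and BLAST 2.17.0 were used.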

Additional observations from a re-analysis of the deposited data

Results flagged for a closer look

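Among 42 groups of 4 values (the 10 members, Gaa and the 3 ratios), 2 held a library farther from the others than Dixon's 95% limit for the gap over the range, where chance gives about 1 in 20. Both concerned Gaa. WT replicate 2 was at 14640.2 (gap over range 0.99), and AAV replicate 4 was at 9854.29 (0.952). None of the members or ratios had such a library.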

How the results depend on the processing

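Over the tests, scalings, filters and single libraries left out, 485 alternative values of the members kept their sign and their side of the threshold, and 17 changed sign, none of them called. For AAV against WT, 2 members and 2 of the 19 family genes (Cacna1c and Cacna1h) were called in place of 0 by DESeq2, with total-read scaling, with all 12 libraries in one fit and without WT replicate 3 (range without 1 library 0 to 2). Without 1 library, the members called ran from 6 to 8 for KO against WT and from 4 to 5 for AAV against KO, and the family genes called from 7 to 11 (WT replicate 3) and from 4 (AAV replicate 1) to 9 (AAV replicate 3). Gaa for KO against WT was 1.66 by edgeR (adjusted p = 0.29) and 3.24 to 5.07 without 1 library, with an adjusted p under 0.05 in 2 of 8 fits. Changes of sign were: Cacna1c for AAV against KO, 0.15 with total reads, 0.0055 with TMM and -0.099 to 0.076 without 1 library; Cacna1h for AAV against KO, 0.013 with total reads; Cacna2d1 for AAV against WT, -0.19 to 0.32 without 1 library and -0.053 without WT replicate 2 and AAV replicate 4; and Cacng6 for AAV against WT, 0.0024 by DESeq2, 0.023 by edgeR, 0.15 with total reads, 0.0086 with TMM, -0.055 to 0.042 without 1 library and 0.063 without both libraries. The cause was not tested. Cacng1 for AAV against KO was not called with all 12 libraries in one fit (1.03, adjusted p = 0.0535, against 9.41e-05 to 0.0535 over the alternatives).

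Over all genes, the count for AAV against WT was 193 by limma, 935 by DESeq2, 901 with all 12 libraries, 318 with total reads and 10 without WT replicate 2 and AAV replicate 4. Without 1 library it ran from 18 (AAV replicate 2) to 442 (WT replicate 3), for KO against WT from 2353 to 7163 (WT replicate 3), and for AAV against KO from 1961 to 5071 (AAV replicate 3). The replicate numbers come from different animals, and the deviations of same-numbered libraries correlated between -0.355 and 0.554, over 0.1 in 2 of 12 pairs, with 6 of 24 best matches on the own number. With the replicate block, 7, 4 and 0 members, 8, 5 and 0 family genes (Cacna1a lost for KO against WT at adjusted p = 0.0531 and Cacng4 for AAV against KO at 0.0578, limma) and 3062, 2179 and 132 genes were called. Among the members, Cacna1c, Cacna1h and Cacnb3 had the fewest reads, from 18 in the lowest library.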
